A study of Rattus norvegicus with 32 samples.

Results

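The subventricular zone (SVZ) and the dentate gyrus (DG), the neurogenic regions of the adult rodent brain, were compared directly in saline-treated rats. The libraries were chosen by their labels: 4 SVZ and 4 DG RNA-seq libraries of the saline group, 8 of the 32 libraries in the series. The series profiled the nucleus accumbens (NAc), DG, hippocampal CA and SVZ of rats given methamphetamine (METH) or saline, with 4 libraries per region and treatment. All rats were adult male Sprague-Dawley rats with no genetic change named in the labels. Saline (1 mL/kg) was injected into the peritoneum 4 times at intervals of 2 h, and the METH groups received 10 mg/kg on the same schedule. According to the methods, the SVZ was punched out of frozen slices and the DG was scooped out of the hemisphere, so each library holds whole tissue in which the neurogenic cells are mixed with their neighbours.

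In the SVZ, which lines the lateral ventricle beside the striatum, astrocyte-like stem cells give rise to dividing progenitors and to neuroblasts that migrate to the olfactory bulb and become mostly GABAergic interneurons. In the DG, stem cells of the subgranular zone give rise to glutamatergic granule neurons that stay close to their birthplace. Both niches use Wnt, Notch, BMP and hedgehog signals, while the SVZ alone borders an ependymal wall with motile cilia.

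Reads assigned to genes ranged from 17269245 to 21085891 in the SVZ libraries and from 11600333 to 14564458 in the DG libraries. Levels are given in CPM, counts scaled to upper-quartile library sizes, and 1 read was worth 0.0468 to 0.0558 CPM in the SVZ and 0.0631 to 0.0907 CPM in the DG. In the file headers all SVZ libraries carry a file name prefix that no DG library carries. The headers do not say what the prefix stands for. Any batch it marks cannot be told apart from region. DG Sal 3 carries another prefix than the one shared by DG Sal 1, 2 and 4. Any batch marked by that difference cannot be told apart from DG Sal 3 itself. The headers also give DG Sal 1 and DG Sal 2 the library numbers 20 and 21, which in the NAc and CA belong to METH samples. In reverse, DG METH 1 and DG METH 2 carry the numbers 14 and 15, which in the NAc and CA belong to saline samples. Whether these 4 DG libraries were exchanged could not be settled here, and the labels were followed. SVZ Sal 1, SVZ Sal 2, SVZ METH 2 and SVZ METH 4 carry the word EXTRA in their headers, whose meaning is not known here. Its part in the values was not tested. The labels do not say that the 4 libraries of a group came from separate animals, so p-values measure the spread between these libraries. In whole tissue, fewer cells of a type and less RNA per cell cannot be told apart.

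Several libraries differed from their group in the markers of neighbouring tissue. In DG Sal 3 the summed level of 16 striatal medium spiny neuron genes was 2923 CPM, against 424 to 578 CPM in the other DG libraries, and the summed level of 14 pallial glutamatergic genes was 947 CPM against 3331 to 6190 CPM. Across 14450 genes, DG Sal 3 correlated with the mean of the NAc at r = 0.986 and with the mean of the other DG libraries at r = 0.947. DG Sal 4 correlated with the other DG libraries at r = 0.948 and with the CA at 0.944, the nearest other region. For DG Sal 1, 2 and 4 the mean of the other DG libraries includes DG Sal 3. Like DG Sal 3, further libraries correlated better with another region than with their own group. DG Sal 1 and 2 correlated with the CA at r = 0.990 and 0.979 and with the other DG libraries at 0.973 and 0.976. SVZ Sal 2 was at r = 0.986 with the NAc and 0.977 with the other SVZ libraries. SVZ Sal 1 was at r = 0.939 with the DG and 0.920 with the other SVZ libraries. SVZ Sal 1 held 2592 CPM of thalamic neuron genes against 145 to 335 CPM in the other SVZ libraries, 682 CPM of striatal genes against 4903 to 8445 CPM, and 127 CPM of subventricular neuroblast factors against 447 to 508 CPM. DG Sal 4 held 3531 CPM of choroid plexus genes, against 84.1 to 422 CPM in the other DG libraries. For this reason the counts of calls, some lists and some genes are given with and without DG Sal 3 and SVZ Sal 1. Other results are given for all 8 libraries only, and the smaller set can differ from them. The median log2 fold change, SVZ minus DG, of interneuron genes was 0.33 with all 8 libraries and 0.04 without both. That of GABA-A receptor genes was −0.28 and 0.03. DG Sal 3 and SVZ Sal 1 were left out for their marker levels, so the smaller set is no independent evidence on any list. SVZ Sal 1 was the lowest SVZ library in summed dividing cell genes (94.4 CPM) and cilium genes (164 CPM). DG Sal 3 was the highest DG library in both (112.5 and 478 CPM), so leaving both libraries out widened these differences.

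The DG label was only partly borne out by granule neuron genes. Prox1, the homeobox factor that specifies granule neurons, was at 155, 27.1, 29.4 and 73.0 CPM in DG Sal 1 to 4 and at 153, 19.9, 25.6 and 60.6 CPM in SVZ Sal 1 to 4, so the groups overlapped over nearly their whole range. C1ql2, a synaptic protein of mossy fibres, was at 50.7, 1.18, 7.07 and 12.3 CPM in the DG and at 3.72, 4.68, 5.76 and 12.3 CPM in the SVZ. The summed level of the 12 granule neuron genes stood at 895 CPM in DG Sal 1, while the other DG libraries lay between 428 and 478 CPM, inside the range of the SVZ (396 to 507 CPM). The same sum was 1267, 460, 1455 and 677 CPM in CA Sal 1 to 4 and 480 to 551 CPM in the saline NAc. In DG METH 1 to 4 it was 1467, 1297, 427.5 and 1201 CPM. Of the 10 members tested, 0 were called and 9 had lower means in the SVZ. Trpc6, a calcium-permeable channel, was the member lower in the SVZ at an unadjusted p under 0.05 (log2 fold change −1.05 ± 0.39, SE), and Dsp, a desmosome protein, was at 0.781 to 1.5 CPM in the SVZ and 0.947 to 3.62 CPM in the DG.

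**Figure D1:**
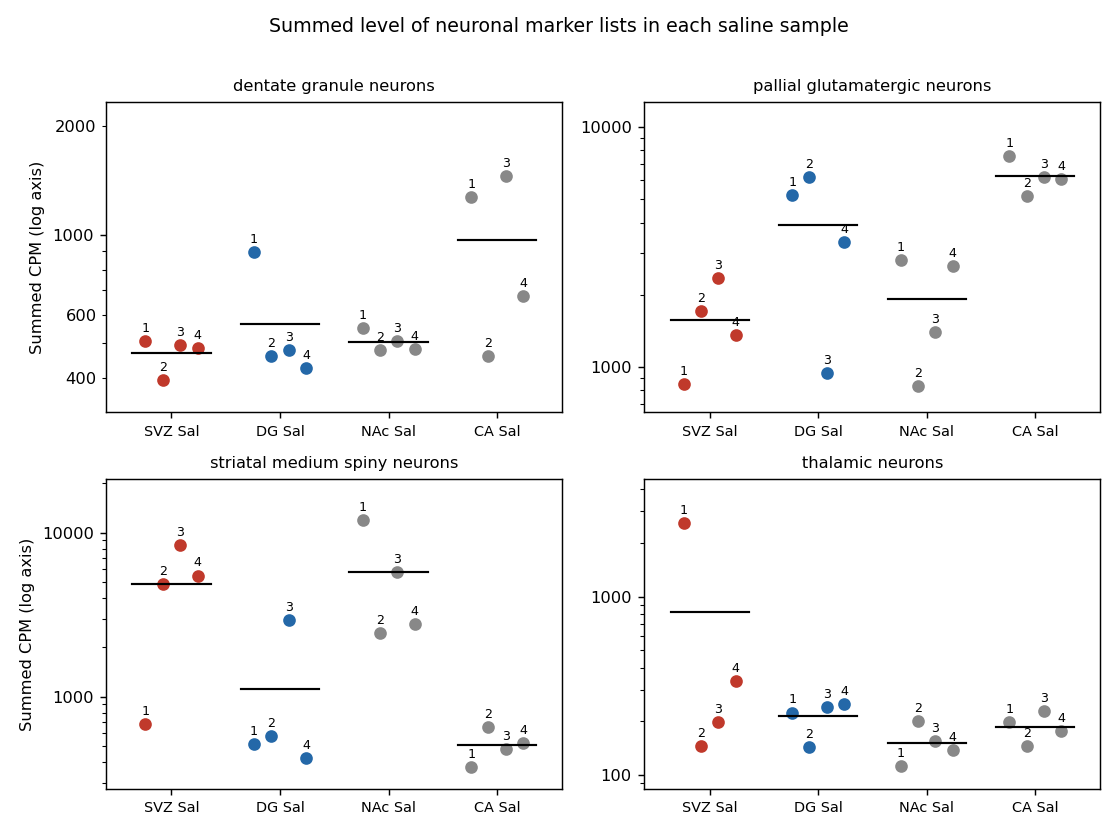
Summed CPM of 4 neuronal marker lists (log axis) in each saline library of the SVZ, DG, NAc and CA; numbers are replicates and bars are group means. DG Sal 3 (striatal genes, 2923 CPM) and SVZ Sal 1 (thalamic genes, 2592 CPM) stand away from their groups, and 3 of 4 DG libraries lie within the SVZ range of granule neuron genes.

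Across the transcriptome, no gene passed the threshold between the regions when all 8 libraries were used. A gene was called at a false discovery rate (FDR) under 0.01 and more than 2-fold, and log2 fold changes are SVZ minus DG, so that positive values are higher in the SVZ. With edgeR's quasi-likelihood test, 0 of 15182 genes were called in each direction (0%), and the lowest FDR was 0.339. At an unadjusted p under 0.05, 768 genes were higher in the SVZ (5.06%) and 865 were higher in the DG (5.7%). The values of the groups did not overlap for 437 genes above in the SVZ (2.88%) and for 395 above in the DG (2.6%). The common biological coefficient of variation was 0.363. Other tools made calls on the same counts: DESeq2 called 8 genes higher in the SVZ and 51 higher in the DG, and edgeR's likelihood ratio test called 4 and 17. With all 8 libraries, the members of each list that passed an unadjusted p under 0.05 are read against 5.06% of all genes on the SVZ side and 5.7% on the DG side. Unless another tool is named, called means by edgeR's quasi-likelihood test. Of the members of the gene lists described here, DESeq2 called Tnc, Chrd and Slc30a3 and the likelihood ratio test Tnc and Chrd.

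The count turned on DG Sal 3 and SVZ Sal 1. Without both, edgeR's quasi-likelihood test called 89 of 15119 genes higher in the SVZ (0.589%) and 44 higher in the DG (0.291%), and 1913 (12.7%) and 1797 (11.9%) were so at an unadjusted p under 0.05. Without DG Sal 3 alone there were 3 and 4 calls. Those 7, named here after their values were seen, were Unc13c, Nexn and Isl1 on the SVZ side and Adcyap1, Robo3, Zbtb16 and Satb1 on the DG side. Without SVZ Sal 1 alone there were 0 calls, and 1260 and 1314 genes had an unadjusted p under 0.05.

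Among the genes with fully separated groups on the SVZ side, the lowest p belonged to Tnc, tenascin-C, an extracellular matrix protein of the SVZ stem cell niche that lies on rn6 chromosome 5 from 79789671 to 79874671. Tnc was at 60.1, 48.6, 36.6 and 44.4 CPM in SVZ Sal 1 to 4 and at 16.1, 14.7, 18.6 and 22.3 CPM in DG Sal 1 to 4. All SVZ libraries were above all DG libraries, with a log2 fold change of 1.41 ± 0.19 (SE) and an FDR of 0.339 by edgeR's quasi-likelihood test. Without the 2 libraries the value was 1.30. The mean of the NAc was 20.2 ± 4.8 CPM and that of the CA 21.0 ± 1.5 CPM (SD, n = 4); the SVZ was not tested against them.

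Gins3, a subunit of the GINS complex of DNA replication forks (rn6 chromosome 19, 9835057 to 9843673), was at 7.39, 8.75, 6.73 and 5.19 CPM in the SVZ and at 2.09, 2.99, 3.09 and 1.85 CPM in the DG. Its log2 fold change was 1.49 ± 0.25. Pcp4, a calmodulin-binding peptide of many neuron types (rn6 chromosome 11, 36851038 to 36912229), was at 703, 252, 432 and 289 CPM in the SVZ and at 92.8, 62.6, 144 and 43.0 CPM in the DG, a log2 fold change of 2.30 ± 0.45. For Pcp4 the highest SVZ library was SVZ Sal 1 and the highest DG library was DG Sal 3, and the value without them was 2.31. Tceal3, related to a transcription elongation factor, was at 22.9 to 36.6 CPM in the SVZ and 6.52 to 13.4 CPM in the DG (1.40 ± 0.24).

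The other 8 genes of the SVZ side differed by less. The linker histone gene Hist1h1c was at 73.0 to 92.3 CPM against 45.6 to 49.5 CPM (0.76 ± 0.11), and the splicing factor Srsf5 at 197 to 242 CPM against 108 to 156 CPM (0.71 ± 0.15). Tmem41a and LOC108352861 had log2 fold changes of 1.06 each. The cartilage-type collagen Col11a2, the membrane-bending protein Pacsin2, the spliceosome protein Cwc27 and the methionine aminopeptidase Metap2 lay between 0.50 and 0.78. For all 12 the log2 fold change without DG Sal 3 and SVZ Sal 1 was of the same sign.

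On the DG side the lowest p was that of Adcyap1, which encodes the neuropeptide PACAP (rn6 chromosome 9, 121706979 to 121725716). Adcyap1 was at 30.9, 34.4, 3.98 and 22.8 CPM in DG Sal 1 to 4 and at 0.754, 0.889, 0.581 and 0.279 CPM in SVZ Sal 1 to 4. Every DG library was above every SVZ library, with DG Sal 3 nearest to the SVZ, and the log2 fold change was −5.16 ± 0.70 (FDR 0.339). The CA, at 13.7 ± 9.0 CPM (SD, n = 4), and the NAc, at 2.36 ± 1.93 CPM, lay between them. Without the 2 libraries the log2 fold change was −5.60 and the FDR 0.00152 by edgeR's quasi-likelihood test.

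Robo3, a receptor of the Slit pathway that steers commissural axons (rn6 chromosome 8, 39892792 to 39907478), was at 10.6, 14.9, 2.02 and 20.4 CPM in the DG and at 0.659, 0.889, 0.532 and 0.502 CPM in the SVZ (−4.19 ± 0.66). Olfm2, a secreted olfactomedin protein (rn6 chromosome 8, 21681266 to 21743338), was at 88.8, 116, 49.0 and 118 CPM in the DG and at 29.0, 28.5, 20.9 and 17.5 CPM in the SVZ (−1.95 ± 0.30). In Robo3 and Olfm2, as in Adcyap1, DG Sal 3 was the lowest DG library. Car10, a carbonic anhydrase-related synaptic protein, was at 13.9 to 76.0 CPM in the DG and 2.67 to 5.47 CPM in the SVZ (−3.22 ± 0.54).

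Tbc1d1, a Rab GTPase-activating protein, was at 29.7 to 61.2 CPM in the DG and 15.9 to 21.1 CPM in the SVZ (−1.46 ± 0.23). Adcy2, an adenylate cyclase, had a log2 fold change of −1.24 ± 0.22, the amino acid transporter Slc7a5 one of −0.85 ± 0.13, the adaptor Sh2d3c one of −0.81 ± 0.14 and the phosphatase Phlpp2 one of −0.76 ± 0.13. RF00019, RF00092 and RF00263 are families of small noncoding RNAs whose copies lie on several chromosomes under 1 name, so their values (−1.21, −1.19 and −1.26) sum over copies and are uncertain. Of the 12 genes of the DG side, 4 (Adcyap1, Robo3, Olfm2 and Tbc1d1) were called without DG Sal 3 and SVZ Sal 1, and 0 of the 12 of the SVZ side were. DESeq2 and the likelihood ratio test called 15 and 11 of these 24 genes with all 8 libraries. Over all genes they called 59 of 22665 and 21 of 15182. The 24 were picked by low p and separated groups in the same 8 libraries, so these calls are no independent evidence.

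**Figure D2:**
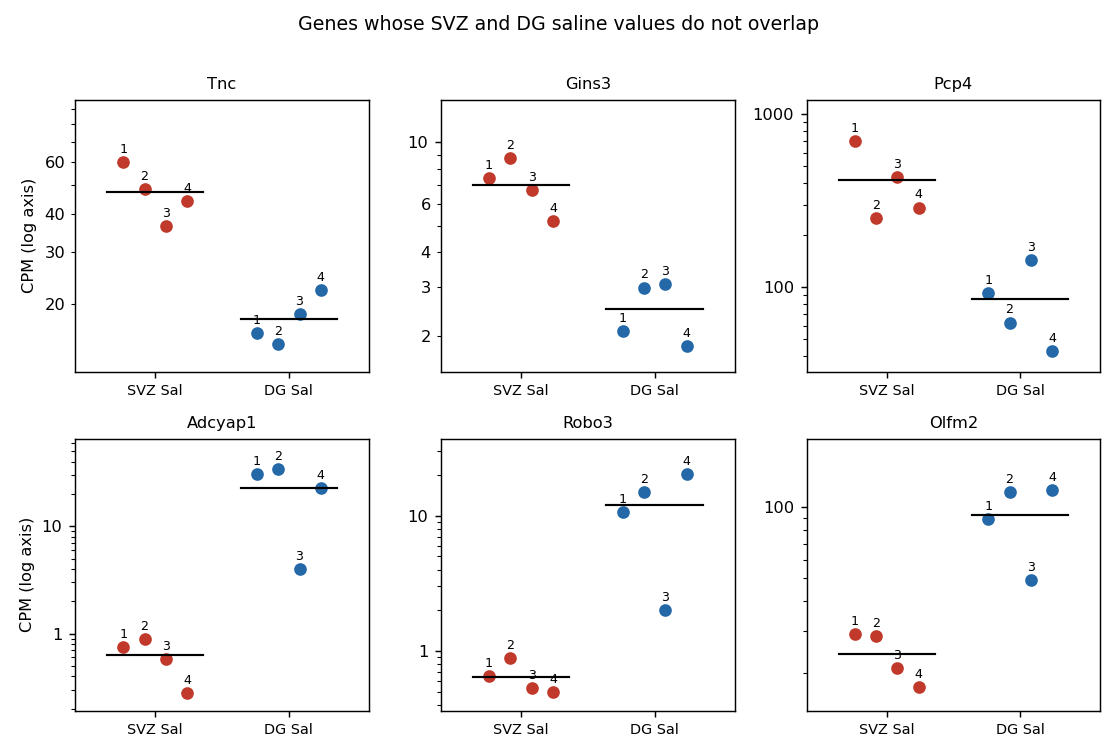
CPM (log axis) of 3 genes above in the SVZ and 3 above in the DG, in each saline library; numbers are replicates and bars are means. Groups do not overlap in any of the 6, and DG Sal 3 is the DG library nearest to the SVZ for Adcyap1 (3.98 CPM), Robo3 (2.02 CPM) and Olfm2 (49.0 CPM).

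All 14 pallial glutamatergic genes, which mark excitatory neurons of cortex and hippocampus, had lower means in the SVZ, and their median log2 fold change was −3.08, beside 0.02 for all genes. By edgeR's quasi-likelihood test none was called, while DESeq2 called Slc30a3, and 7 of the 14 were lower at an unadjusted p under 0.05, where 5.7% of all genes were. Slc17a7, the vesicular glutamate transporter VGLUT1, was at 1615, 1358, 3.85 and 1080 CPM in DG Sal 1 to 4 and at 252, 201, 86.5 and 8.42 CPM in SVZ Sal 1 to 4. The 3 DG libraries other than DG Sal 3 were all above the SVZ, and DG Sal 3 was below every SVZ library. Emx1, a homeobox factor of the dorsal telencephalon, was at 12.6, 29.0, 0.0631 and 13.0 CPM in the DG and 0.0471 to 1.36 CPM in the SVZ (−4.06 ± 1.27). In DG Sal 3 its level was that of 1 read, within the SVZ range, and the other DG libraries were above the SVZ.

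Slc30a3, the zinc transporter of glutamatergic vesicles, was at 115, 138, 1.52 and 55.7 CPM in the DG and 2.34 to 6.46 CPM in the SVZ (−3.997 ± 1.04). Neurod1, a proneural factor of granule neurons, was at 23.6, 19.9, 0.252 and 66.4 CPM in the DG and 0.167 to 2.34 CPM in the SVZ (−4.56 ± 1.30). Without DG Sal 3 and SVZ Sal 1, 3 of the 14 pallial genes were called lower in the SVZ (Nrn1, Emx1 and Slc30a3), beside 0.291% of all genes, and the median was −3.47. DG Sal 3 was left out partly for its pallial level, so these calls are no independent evidence on the list. Among genes of CA pyramidal neurons, 4 of 8 tested had higher means in the SVZ and the median was −0.10. Mpped1 was lower in the SVZ at an unadjusted p under 0.05 (−1.80 ± 0.69). Bok, a BCL2-family protein, was higher (1.87 ± 0.76), with 169 CPM in SVZ Sal 1 and 11.7 to 37.8 CPM in the other SVZ libraries. Wfs1, an endoplasmic reticulum protein of CA1 neurons, ranged from 50.9 to 578 CPM in the SVZ and from 152 to 289 CPM in the DG (0.05 ± 0.62).

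All 16 striatal medium spiny neuron genes had higher means in the SVZ, with a median log2 fold change of 2.12. None was called and 5 of 16 were higher at an unadjusted p under 0.05 (Pde10a, Ppp1r1b, Adcy5, Rarb and Penk), beside 5.06% of all genes. Drd1, the D1 dopamine receptor, was at 21.2, 209, 226 and 167 CPM in SVZ Sal 1 to 4 and at 15.9, 7.71, 121 and 4.91 CPM in DG Sal 1 to 4. SVZ Sal 1 was low and DG Sal 3 high, which made the groups overlap. Ppp1r1b, which encodes DARPP-32, the phosphatase inhibitor downstream of dopamine receptors, was at 105, 977, 2067 and 1165 CPM in the SVZ and at 59.5, 103, 539 and 76.7 CPM in the DG (2.48 ± 0.98). The phosphodiesterase gene Pde10a (2.26 ± 0.80) and the adenylate cyclase gene Adcy5 (1.69 ± 0.67) had the same pattern. Without the 2 libraries, 12 of the 16 were called higher in the SVZ, beside 0.589% of all genes, and the median was 4.03, with Drd1 at 4.41 and Ppp1r1b at 4.15. The 2 libraries were left out partly for their striatal levels, so these calls are no independent evidence on the list.

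Thalamic genes depended on SVZ Sal 1. All 9 tested had higher means in the SVZ (median 1.83), and Prkcd and Tcf7l2 were higher at an unadjusted p under 0.05. Prkcd, a protein kinase C, was at 935 CPM in SVZ Sal 1, at 32.5 to 118 CPM in the other SVZ libraries and at 15.4 to 65.5 CPM in the DG. Tcf7l2, a Wnt-responsive factor of thalamic neurons, was at 260 CPM in SVZ Sal 1, 14.2 to 43.0 CPM in the others and 12.0 to 21.5 CPM in the DG. Without both libraries the list's median was −0.44, and Tnnt1, a troponin, was the member called higher in the SVZ.

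The 9 septal and basal forebrain genes tested had a median of −0.03, which was 2.92 without DG Sal 3 and SVZ Sal 1. Chat, the acetylcholine-synthesizing enzyme, was at 0.659, 16.2, 12.5 and 7.64 CPM in the SVZ and at 0.322, 0.635, 14.5 and 0.965 CPM in the DG. The choline transporter Slc5a7 was likewise at 35.3 CPM in DG Sal 3 and 1.37 to 7.32 CPM in the other DG libraries. Zic1, a zinc finger factor of septal and striatal precursors, was at 29.3 to 150 CPM in the SVZ and 4.59 to 117 CPM in the DG. Of 10 GABAergic and interneuron genes tested, 0 were called and 0 passed an unadjusted p under 0.05. Gad1 and Gad2, which synthesize GABA, were at 483 to 526 and 667 to 964 CPM in the SVZ, while the DG spread from 143 to 611 and from 176 to 1129 CPM with DG Sal 3 highest in both. The vesicular GABA transporter Slc32a1 had a log2 fold change of 0.67 ± 0.57 and the secreted protein Reln, of Cajal-Retzius cells and interneurons, one of −0.89 ± 0.45.

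Genes of cell division were higher in the SVZ in mean level for all 22 members tested, with a median log2 fold change of 0.86. None was called, and 6 of 22, Mcm2, Mcm3 and Top2a among them, were higher at an unadjusted p under 0.05, where 5.06% of all genes were. Top2a, the topoisomerase of dividing cells, was at 0.754, 22.6, 6.39 and 17.9 CPM in SVZ Sal 1 to 4 and at 0.965, 0.907, 4.67 and 2.82 CPM in DG Sal 1 to 4. The SVZ libraries other than SVZ Sal 1 were above all of the DG. Mki67, the proliferation marker Ki-67, was at 3.34, 29.9, 12.8 and 27.6 CPM in the SVZ and at 9.41, 7.16, 12.1 and 10.1 CPM in the DG (0.93 ± 0.57). The replication helicase subunits Mcm2 (6.24 to 9.37 CPM against 3.81 to 5.87 CPM) and Mcm3 (2.66 to 4.82 CPM against 1.09 to 2.27 CPM) were the 2 members of 22 whose groups did not overlap. Over all genes, 2.88% had the SVZ above the DG without overlap. Without both libraries the median was 1.16, 0 were called and 16 of 22 were higher at an unadjusted p under 0.05, beside 12.7% of all genes.

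Stem cell genes showed smaller differences. Of 16 tested, 11 had higher means in the SVZ, the median was 0.22, and Tnc and Fabp7 were higher and Hes1 lower at an unadjusted p under 0.05. Fabp7, a fatty acid-binding protein of radial glia and astrocytes, was at 28.3, 37.4, 27.1 and 37.5 CPM in the SVZ and at 23.6, 21.0, 16.9 and 22.4 CPM in the DG (0.64 ± 0.17), with no overlap. Sox2, a factor of stem cells and astrocytes, was at 63.9 to 108 CPM in the SVZ and at 43.5 to 49.0 CPM in the DG apart from 83.4 CPM in DG Sal 3 (0.52 ± 0.26). Nes, the intermediate filament nestin, was at 1.98 to 3.51 CPM and 1.70 to 2.63 CPM. The summed level of the list was 357 to 563 CPM in the SVZ and 315 to 370 CPM in the DG.

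Neuroblast genes shared by both zones did not separate the regions. Of 10 tested, 6 had higher means in the SVZ, 0 passed an unadjusted p under 0.05, and the median was 0.12. Dcx, the microtubule protein doublecortin, was at 19.3, 90.3, 33.3 and 67.5 CPM in the SVZ and at 45.5, 47.3, 77.9 and 32.1 CPM in the DG (0.06 ± 0.48). Sox11, a factor of newborn neurons, had a log2 fold change of 0.69 ± 0.53, Dpysl5, a growth cone protein, one of 0.60 ± 0.29, and Nrep, a regeneration-related protein, one of −0.60 ± 0.27.

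The factors that distinguish the lineages differed in sign. Among the subventricular neuroblast factors, which specify olfactory bulb interneurons, 7 of 8 tested had higher means in the SVZ (median 1.09). Sp8, a zinc finger factor of interneuron neuroblasts, was at 3.53, 11.2, 12.8 and 16.3 CPM in SVZ Sal 1 to 4 and at 0.885, 0.907, 10.7 and 1.45 CPM in DG Sal 1 to 4 (1.63 ± 0.86), so DG Sal 3 lay within the SVZ range. Dlx1 and Dlx2, homeobox factors of GABAergic neurons, had log2 fold changes of 0.43 ± 0.48 and 1.12 ± 0.60. The member that ran the other way was Etv1, an ETS factor that mature neurons also express, at 56.4 to 82.8 CPM in the SVZ and 81.0 to 226 CPM in the DG (−1.04 ± 0.29, unadjusted p = 0.00635 by edgeR's quasi-likelihood test, n = 4). Without both libraries, Dlx5, Sp8 and Sp9 were called higher in the SVZ, beside 0.589% of all genes. SVZ Sal 1 was left out partly for its low level of these factors, so the calls are no independent evidence on them.

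Of 6 subgranular factors tested, 1 had a higher mean in the SVZ and the median was −0.52. Neurod4, a proneural factor, was the member lower at an unadjusted p under 0.05, and this came from 1 library, at 136 CPM in DG Sal 4 and 0.804 to 1.45 CPM in the other DG libraries. Sox5, a SoxD factor of maturing neurons, had a log2 fold change of −0.60 ± 0.35. The first members of that list, Eomes and Neurog2, were too low to be tested: Eomes, a factor of intermediate progenitors, was at 0.0471 to 0.223 CPM in the SVZ and 0.181 to 0.694 CPM in the DG, and Neurog2 had 0 reads in each SVZ library, where 3 reads would be 0.140 to 0.167 CPM.

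**Figure D3:**
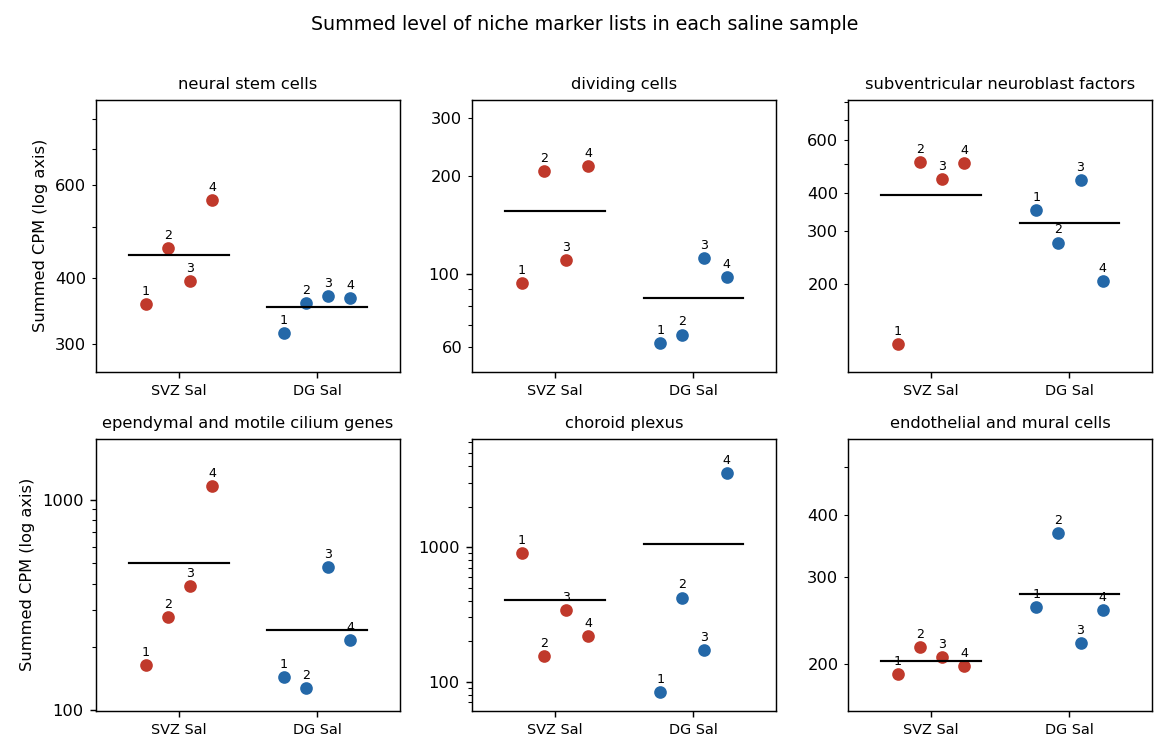
Summed CPM of 6 niche lists (log axis) in each saline library of the SVZ and DG; numbers are replicates and bars are means. Endothelial and mural genes alone separate the groups among these 6 lists (192 to 217 CPM in the SVZ, 221 to 367 CPM in the DG), and SVZ Sal 4 (cilium genes, 1165 CPM) and DG Sal 4 (choroid plexus, 3531 CPM) are the highest points of their panels.

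The signalling pathways of the niches were close to the median of all genes. The medians were 0.07 for 23 Wnt genes, −0.09 for 13 Notch genes, 0.14 for 17 BMP genes, 0.00 for 11 hedgehog genes and 0.05 for 15 cues of neuroblast migration. With all 8 libraries edgeR's quasi-likelihood test called no gene of these lists, while DESeq2 and the likelihood ratio test called Chrd lower in the SVZ. At an unadjusted p under 0.05, 2 Wnt genes were higher in the SVZ (Sfrp2 and Fzd5) and 2 were lower (Dkk3 and Frzb), of 23 tested, beside 5.06% and 5.7% of all genes. These shares are near the background and are no result about the pathway. Sfrp2, a secreted inhibitor that binds Wnt, was at 9.09, 4.72, 6.92 and 4.30 CPM in the SVZ and 1.37, 1.90, 3.09 and 3.22 CPM in the DG (1.38 ± 0.36), with no overlap. Fzd5, a Wnt receptor, was at 5.01 to 8.92 CPM and 2.09 to 5.11 CPM (1.25 ± 0.34). The ligand Wnt3 stood at 18.8 CPM in SVZ Sal 1 and between 0.936 and 2.54 CPM in the other 7 libraries.

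The BMP antagonist Chrd, chordin, which binds BMP ligands outside the cell, had the lowest p of the pathway lists (rn6 chromosome 11, 83858503 to 83867203). Chrd was at 36.5, 23.1, 4.17 and 25.7 CPM in DG Sal 1 to 4 and at 1.79, 4.21, 2.13 and 2.06 CPM in SVZ Sal 1 to 4 (−3.12 ± 0.62, FDR 0.363), and DG Sal 3 was just below the highest SVZ library. Grem1, another secreted antagonist, was also lower in the SVZ at an unadjusted p under 0.05 (−2.58). Id4, a target of BMP signals that restrains differentiation factors, was at 70.4 to 104 CPM in the SVZ and at 36.6, 38.8, 74.8 and 29.8 CPM in the DG (0.97 ± 0.29). The ligands Bmp2 and Bmp4 had log2 fold changes of 1.10 ± 0.60 and 0.19 ± 0.41. Without both libraries Chrd was called lower (−3.32) and Id4 higher (1.43) in the SVZ.

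Of the Notch genes, the target Hey1 (0.92 ± 0.30) and the ligand Jag1 (0.54 ± 0.22) were higher in the SVZ at an unadjusted p under 0.05, and the ligand Dll1 was at 12.5 to 15.96 CPM and 6.44 to 13.5 CPM (0.46 ± 0.23). The ligand Shh was at 1.17 to 4.52 CPM in the SVZ and 0.885 to 6.75 CPM in the DG, and the hedgehog co-receptor Boc had a log2 fold change of −0.71 ± 0.46. Among migration cues, the repellents Slit1 and Slit2 were lower in the SVZ at an unadjusted p under 0.05. Slit1 was at 19.2, 78.7, 56.5 and 51.9 CPM in the SVZ and at 296, 99.8, 85.6 and 111 CPM in the DG (−1.51 ± 0.52), with no overlap. Slit2 was at 17.7 to 73.9 CPM and 55.1 to 98.5 CPM (−1.10 ± 0.41). Nrg2, a neuregulin, was higher in the SVZ at an unadjusted p under 0.05 (0.51 ± 0.22). The Slit receptor Robo1 was at 70.1 to 137 CPM in the SVZ and at 59.7 to 65.5 CPM in the DG apart from 132 CPM in DG Sal 3, and was called higher in the SVZ (1.01, FDR 0.00916 by edgeR's quasi-likelihood test) without both libraries. In METH Robo1 was at −0.38 (FDR 0.124 by the same test), with an interaction of region and treatment of −0.86 (unadjusted p = 0.0312).

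All 24 ependymal and motile cilium genes tested had higher means in the SVZ, with a median log2 fold change of 1.36. None was called, and Rsph1, a radial spoke protein, was the 1 member of 24 higher at an unadjusted p under 0.05 (1.18 ± 0.50), a share no larger than the 5.06% of all genes. Ccdc153, an ependymal coiled-coil protein, was at 2.92, 5.71, 10.6 and 30.6 CPM in SVZ Sal 1 to 4 and at 0.483, 1.09, 11.6 and 1.05 CPM in DG Sal 1 to 4. DG Sal 3 exceeded 3 of the 4 SVZ libraries. Tmem212, a membrane protein of ciliated cells, was at 2.40, 4.54, 6.34 and 29.0 CPM in the SVZ and at 0, 1.36, 8.39 and 0.483 CPM in the DG, and the dynein light intermediate chain Dnali1 had a log2 fold change of 1.47 ± 0.72. Without both libraries the median was 2.52, 0 were called, and 20 of 24 were higher at an unadjusted p under 0.05, beside 12.7% of all genes. In METH the median was 0.77 and 0 of 22 tested passed an unadjusted p under 0.05 in either direction. Foxj1, the master factor of motile cilia, was not analysed here.

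Choroid plexus genes, from the secretory epithelium of the ventricles, were set by single libraries. The 15 tested had a median of −1.36 and 0 passed an unadjusted p under 0.05. Ttr, transthyretin, was at 328, 1.12, 104 and 24.8 CPM in the SVZ and at 0.0804, 157, 0.820 and 1764 CPM in the DG. Slc4a5, a bicarbonate transporter of that epithelium, was at 0.421 to 9.98 CPM in the SVZ and at 145 CPM in DG Sal 4, with 0.241 to 3.99 CPM in the other DG libraries.

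Astrocyte, microglial and precursor genes had medians of −0.02, 0.03 and 0.14, and myelin genes one of 0.45. Of 13 astrocyte genes, 0 passed an unadjusted p under 0.05 and the log2 fold changes ran from −0.26 to 0.31. The water channel Aqp4 was at 436 to 639 CPM in the SVZ and 433 to 574 CPM in the DG, and the folate enzyme Aldh1l1 at 19.4 to 31.2 CPM and 18.2 to 20.7 CPM. Of 15 myelin genes, all had higher means in the SVZ, 0 passed an unadjusted p under 0.05, and the median was −0.06 without both libraries. Mbp, myelin basic protein, was at 9529, 1835, 4236 and 3602 CPM in SVZ Sal 1 to 4 and at 1635, 2981, 3770 and 6039 CPM in DG Sal 1 to 4, and SVZ Sal 1 was the highest of the 8. Of 8 precursor genes, 0 passed an unadjusted p under 0.05, with Cspg4, the NG2 proteoglycan, at −0.13 ± 0.13 and the matrix proteoglycan Vcan at 0.32 ± 0.19.

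Of 12 microglial genes, Itgam and Aif1 were higher in the SVZ at an unadjusted p under 0.05, beside 5.06% of all genes. Itgam, the integrin CD11b, was at 14.6 to 19.0 CPM in the SVZ and 11.1 to 13.6 CPM in the DG (0.37 ± 0.13), and Aif1, which encodes IBA1, was at 6.02 to 9.97 CPM and 5.17 to 7.83 CPM (0.52 ± 0.22). The chemokine receptor Cx3cr1 was at 15.8 to 17.2 CPM and 14.8 to 25.1 CPM.

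Vessel genes had lower means in the SVZ. Of 11 endothelial and mural genes tested, 10 had lower means, and 5 (Flt1, Kdr, Esam, Cdh5 and Vwf) were lower at an unadjusted p under 0.05, beside 5.7% of all genes. None was called, and the median was −0.42 with all libraries and −0.51 without both. Flt1, the VEGF receptor 1, was at 28.6, 36.5, 29.0 and 32.2 CPM in the SVZ and at 54.9, 79.8, 40.8 and 38.0 CPM in the DG (−0.75 ± 0.24), with no overlap. Kdr, the VEGF receptor 2, was at 5.76 to 10.7 CPM and 10.4 to 14.4 CPM (−0.62 ± 0.22), and the junction protein Esam at 4.07 to 5.24 CPM and 5.87 to 9.07 CPM (−0.51 ± 0.20). The summed level of the list was 192, 217, 207 and 198 CPM in SVZ Sal 1 to 4 and 261, 367, 221 and 258 CPM in DG Sal 1 to 4, so the groups did not overlap. Cldn5 had 0 reads in all 8 libraries. Of 8 meningeal fibroblast and collagen genes, 7 had lower means in the SVZ (median −1.16), and Col6a1 (−2.24 ± 0.69), Col6a2 (−1.03 ± 0.40) and Dcn (−1.91) were lower at an unadjusted p under 0.05. Col1a1, the fibrillar collagen, stood at 104 CPM in DG Sal 4 and between 6.14 and 28.6 CPM in the other libraries.

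Synaptic receptor genes were mixed. Of 14 ionotropic glutamate receptor genes, 0 were called, 0 passed an unadjusted p under 0.05 and the median was −0.15. Grin2a, an NMDA receptor subunit, was at 126, 150, 113 and 81.5 CPM in the SVZ and at 323, 321, 62.5 and 207 CPM in the DG (−0.95 ± 0.46), with DG Sal 3 lowest of all 8. Grin3a, a less common NMDA subunit, had a log2 fold change of −0.68 ± 0.30. The AMPA subunit Gria1 was at 31.7 CPM in SVZ Sal 1 and between 160 and 405 CPM in the other libraries. Of 13 GABA-A receptor genes, 2 (Gabra4, 1.06 ± 0.35, and Gabrd, 1.36) were higher and 3, Gabra5 (−1.55 ± 0.58) and Gabra3 (−0.51) among them, were lower in the SVZ at an unadjusted p under 0.05, beside 5.06% and 5.7% of all genes. Gabra4 and Gabrd encode subunits of extrasynaptic receptors. Gabra4 was at 433, 185, 224 and 213 CPM in the SVZ and at 131, 171, 139 and 68.2 CPM in the DG, and Gabra5 at 5.93 to 41.1 CPM and 43.2 to 137 CPM, both with no overlap.

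Of 13 immediate early genes, which neuronal activity induces, Bdnf and Nr4a3 were lower in the SVZ at an unadjusted p under 0.05, beside 5.7% of all genes, and the median was −0.15. Bdnf, the brain-derived neurotrophic factor, was at 3.81, 2.01, 1.84 and 0.948 CPM in SVZ Sal 1 to 4 and at 46.9, 19.1, 1.83 and 8.45 CPM in DG Sal 1 to 4 (−3.13 ± 0.89), and DG Sal 3 lay inside the SVZ range. Nr4a3, a nuclear receptor, was at 6.59 to 19.6 CPM in the SVZ and at 108, 35.1, 9.28 and 51.6 CPM in the DG (−2.08 ± 0.67). Fos, the AP-1 factor, was at 6.08 to 25.4 CPM and 4.36 to 18.4 CPM, with no such order.

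**Figure D4:**
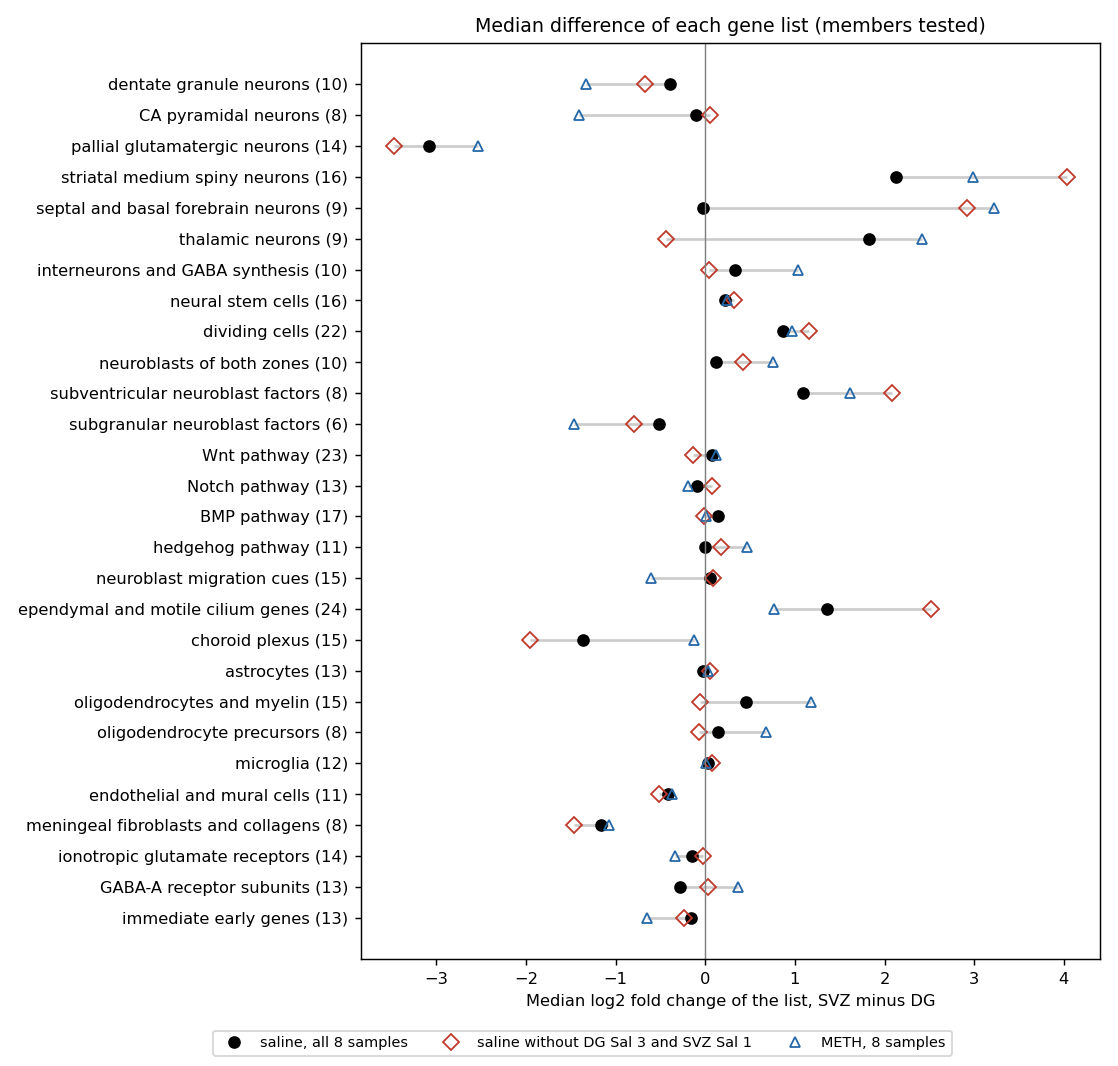
Median log2 fold change, SVZ minus DG, of each of 28 gene lists (members tested in brackets) with all 8 saline libraries, without DG Sal 3 and SVZ Sal 1, and in the 8 METH libraries. Pallial genes lie lowest (−3.08, −3.47 and −2.53) and striatal genes are at 2.12, 4.03 and 2.99, while thalamic and septal lists shift most when the 2 libraries are left out.

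The same contrast in the METH libraries, which share no library with the saline ones, was set beside these values. It is a contrast under another treatment and not a repeat, and its 4 SVZ libraries carry 2 library numbers between them. SVZ METH 2 and 4, marked EXTRA, share their numbers with SVZ METH 1 and 3. DG METH 1 and 2 carry the numbers of saline samples in other regions. Some METH libraries stood apart as well. Thalamic genes summed to 234, 2323, 651 and 1527 CPM in SVZ METH 1 to 4 and to 209 to 394 CPM in the DG, and striatal genes to 2447, 525, 4138 and 1347 CPM in SVZ METH 1 to 4 and to 345 to 729 CPM in the DG. Choroid plexus genes summed to 10790 CPM in SVZ METH 3 and 8901 CPM in DG METH 3, against 146 to 581 CPM in the other 6 libraries. The part of these levels in the METH values was not tested. In METH, edgeR's quasi-likelihood test called 42 of 15333 genes higher in the SVZ (0.274%) and 105 higher in the DG (0.685%), and 2541 (16.6%) and 2292 (14.9%) were so at an unadjusted p under 0.05. With the SVZ libraries of 1 number summed, the calls were 37 and 24. The counts also turned on single libraries. They were 119 and 282 without SVZ METH replicate 1, 66 and 194 without DG METH replicate 3, and 0 to 5 and 0 to 14 without any other of the 8. Of the 768 saline genes higher in the SVZ at an unadjusted p under 0.05, 758 were tested in METH, 93.9% had the same sign there and 63.2% also passed an unadjusted p under 0.05. Of the 865 on the DG side, 852 were tested, 86.9% had the same sign and 57.6% passed. Over all 14957 genes tested in both, 70.9% had the same sign.

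Of the 12 non-overlapping genes of each direction, all 12 of the SVZ side and 11 of the DG side had the same sign in METH. The groups were again without overlap for 9 and 4. The share of all genes without overlap in METH was not counted, so 9 and 4 cannot be judged against it. Pcp4 was at 2.30 in both contrasts. Robo3 was at −5.49 ± 0.87 in METH (FDR 0.0113) and Chrd at −3.65 (FDR 0.00807), so Chrd was called there. Chat and its partner Slc5a7 were called higher in the SVZ in METH, and the Wnt inhibitors Dkk3 and Frzb and the NMDA subunit Grin2a were called lower. Adcyap1 was at −1.86 in METH, with 10.97, 0.567, 6.02 and 1.95 CPM in SVZ METH 1 to 4 and 25.6, 13.8, 4.78 and 26.7 CPM in DG METH 1 to 4. Olfm2 was at 0.08 in METH against −1.95 in saline. Its DG means were 32.0 CPM in METH and 92.9 CPM in saline, and its SVZ means were 33.7 and 23.97 CPM. DG Sal 1 and 2 and DG METH 1 and 2, whose library numbers are in doubt, enter these means.

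A direct test of the difference between the contrasts, the interaction of region and treatment over the 16 libraries, reached an FDR under 0.01 for 0 of 16043 genes with edgeR's quasi-likelihood test, the tool run for it, and 1204 had an unadjusted p under 0.05. The lowest FDR was 0.0445, shared by Arhgef25 and Il1rapl2, both named here after their values were seen. For Olfm2 the interaction was 2.02 on the log2 scale with an unadjusted p of 0.000128, and for Adcyap1 it was 3.30 with an unadjusted p of 0.0118. No DG library carries the header prefix of the SVZ libraries in METH either. Any batch it marks cannot be told apart from region in any of these values.

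**Figure D5:**
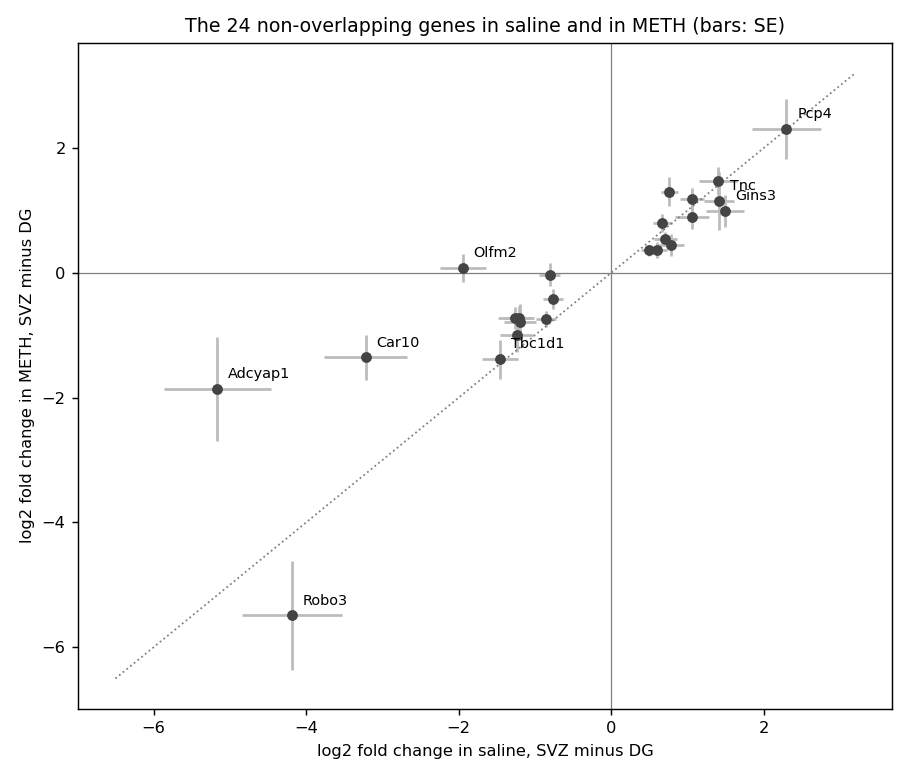
Log2 fold change, SVZ minus DG, in saline (x axis) against METH (y axis) for the 24 genes whose saline groups do not overlap; bars are SE and the dotted line marks equal values. In 23 of the 24 the sign is shared, and Olfm2 is at −1.95 in saline and 0.08 in METH.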

How the data were processed

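The authors trimmed reads with cutadapt 2.7, checked them with FastQC 0.11.4, aligned them to rn6 with STAR 2.5.2b, counted them per gene with featureCounts 1.6.3 and deposited raw counts, which per the file headers were made without strand, so a gene and an antisense partner cannot be told apart. The headers name an Ensembl annotation and the methods one from UCSC. Libraries were made from total RNA depleted of ribosomal RNA.

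Groups followed the sample labels. Counts of the 8 saline SVZ and DG libraries were tested with edgeR 4.0.16 (R 4.3.3, limma 3.58.1) by the quasi-likelihood test after upper-quartile normalization and filterByExpr, with Benjamini-Hochberg adjustment. A call required an FDR under 0.01 and more than 2-fold. DESeq2 1.42.0, edgeR's likelihood ratio test, other filters and normalizations, RUVr factors, a replicate block, left-out libraries and all 16 saline libraries were alternatives. The step was also run on simulated counts. These held no library that stood apart from its group, so that run cannot judge the counts of calls given here. Leaving out DG Sal 3 and SVZ Sal 1 together was chosen after seeing the data. Tables were handled in Python 3.11.15 with numpy 2.4.6 and pandas 2.3.3, and plots drawn with matplotlib 3.10.9.

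Genes were named by a rule: in each direction the 12 genes called or, failing that, of lowest p whose groups do not overlap, and of each of 28 lists the first 2 genes, the members called (at most 5) and those of lowest p up to 4. Members named because a count of 5 or fewer held them were chosen after their values were seen. The comparison, lists and members were chosen with earlier results of these data known. Replicates differed by more than sampling noise, so none was counted as a duplicate. Some members the rule would name are not reported here.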

Additional observations from a re-analysis of the deposited data

Results flagged for a closer look

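Single libraries stood apart from the other 3 of their group by Dixon's criterion in 40 of 278 groups of values tested, where chance gives about 1 in 20. DG Sal 3 accounted for 17, SVZ Sal 1 for 11, DG Sal 4 for 5 and DG Sal 1 for 3, and DG Sal 2 and SVZ Sal 2, 3 and 4 for 1 each.

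In DG Sal 3, striatal genes summed to 2923 CPM (others 424 to 578). Among them Drd1 was at 121 CPM (4.91 to 15.9), Ppp1r1b at 539 (59.5 to 103), Pde10a at 282 (52.3 to 76.4) and Adcy5 at 655 (114 to 193). Chat was at 14.5 CPM (0.322 to 0.965), Prkcd at 65.5 (15.4 to 21.1), Tnnt1 at 8.33 (0.483 to 1.05) and Slc32a1 at 334 (50.8 to 96.6). Sox2 was at 83.4 CPM (43.5 to 49.0), Sp8 at 10.7 (0.885 to 1.45), Fzd5 at 5.11 (2.09 to 2.49) and Robo1 at 132 (59.7 to 65.5). Ccdc153 was at 11.6 CPM (0.483 to 1.09), Tmem212 at 8.39 (0 to 1.36), Aqp4 at 574 (433 to 448) and Aif1 at 7.83 (5.17 to 5.31).

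In SVZ Sal 1, thalamic genes summed to 2592 CPM (145 to 335), subventricular neuroblast factors to 127 (447 to 508) and ionotropic glutamate receptor genes to 1992 (2953 to 3079). Prkcd was at 935 CPM (32.5 to 118), Tcf7l2 at 260 (14.2 to 43.0), Lef1, a Wnt effector that thalamic neurons also express, at 111 (4.21 to 7.14) and Bok at 169 (11.7 to 37.8). Wnt3 was at 18.8 CPM (0.936 to 1.56), Aldh1l1 at 31.2 (19.4 to 20.8), Gria1 at 31.7 (282 to 320) and Gabra4 at 433 (185 to 224).

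In DG Sal 4, choroid plexus genes summed to 3531 CPM (84.1 to 422), with Ttr at 1764 (0.0804 to 157) and Slc4a5 at 145 (0.241 to 3.99), while Neurod4 was at 136 (0.804 to 1.45) and Itgam at 11.1 (13.2 to 13.6). In DG Sal 1, granule neuron genes summed to 895 CPM (428 to 478), Slit1 was at 296 (85.6 to 111) and Gabra5 at 137 (43.2 to 57.4). Esam was at 9.07 CPM in DG Sal 2 (5.87 to 6.37), Chrd at 4.21 in SVZ Sal 2 (1.79 to 2.13), Pacsin2 at 97.1 in SVZ Sal 3 (84.9 to 86.0) and Tmem212 at 29.0 in SVZ Sal 4 (2.40 to 6.34).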

How the results depend on the processing

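With all 8 saline libraries the count of calls was 0 in each direction under TMM, no filter, a CPM filter, 1 or 2 RUVr factors, all 16 saline libraries, an FDR under 0.05 and any fold. Higher in the SVZ and in the DG, DESeq2 called 8 and 51 genes and the likelihood ratio test 4 and 17. Leaving out 1 library gave 0 to 3 and 0 to 4, the highest without DG Sal 3. Leaving out DG Sal 3 and SVZ Sal 1 gave 89 and 44, and 531 and 506 with DESeq2. In METH, DESeq2 called 369 and 593, the likelihood ratio test 320 and 486, an FDR under 0.05 gave 310 and 477, SVZ libraries of 1 number summed gave 37 and 24, and leaving out 1 library gave 0 to 119 and 0 to 282.

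Whether same-numbered libraries came from the same rat is not known here. The deviations of same-numbered saline libraries correlated at −0.06, 0.03, 0.16 and −0.03, and those of other pairs at −0.33 to 0.43. Single libraries that stand apart enter these values, so they cannot settle pairing by animal. With the replicate block there were 0 and 0 calls in saline, with 687 and 721 genes at an unadjusted p under 0.05, and 0 and 0 in METH. Under the block the log2 fold change of Wfs1 was −0.48, that of Dcx −0.11 and that of Ttr 0.29. A term for the header prefix could not be fitted, since no prefix was shared by both regions.

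Of 111 named genes tested, 99 kept their sign under every alternative run and 12 did not. Without DG Sal 3 and SVZ Sal 1, by edgeR and by DESeq2, log2 fold changes of the other sign were −0.44 and −0.47 for Lef1, −0.33 and −0.35 for Wnt3, −0.0669 and −0.0911 for Bmp4, 0.18 and 0.16 for Shh, −0.13 and −0.15 for Mbp, and 0.35 and 0.33 for Gria1. With 1 and 2 RUVr factors they were −0.26 and −0.28 for Wfs1 and −0.0621 and −0.0582 for Dcx. Leaving out 1 library gave −0.998 to 0.59 for Prox1, −0.84 to 0.39 for Wfs1, −0.24 to 2.704 for Lef1, −0.33 to 0.35 for Dcx, −0.37 to 2.09 for Wnt3, −0.0573 to 0.69 for Bmp4, −0.76 to 0.69 for Shh, −3.48 to 1.13 for Ttr, −4.68 to 1.22 for Slc4a5, −0.15 to 0.79 for Mbp, −1.80 to 0.0108 for Col1a1 and −0.25 to 0.30 for Gria1. For Lef1, Wnt3 and Mbp the sign turned without SVZ Sal 1, and for Ttr, Slc4a5 and Col1a1 without DG Sal 4. The cause was not tested. The DG libraries were the shallower, and genes near 1 read there are limited by counting.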

Other observations

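The letters GTTGCC, part of the RFX binding motif, were searched on both strands of RefSeq promoters of the GRCr8 assembly. They lay in 9 of 30 promoters of ependymal and motile cilium genes (30%) and in 12.2% of all 33469 promoters. The 30 promoters belong to 21 genes, so some genes enter with several promoters, which may share sequence. With AT following, 2 of the 30 held them (6.67%), against 1.3% of all. A match is a description of these letters and not a binding site.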
